A study of Rattus norvegicus with 6 samples.

Results

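The Rab genes of cultured rat hippocampal neurons are described here at the transcript level. Members were the genes of the expression table whose symbol is Rab followed by a number, with or without a letter after it, and this rule, which uses names and no measured value, found 54 of the 17066 genes listed. The neurons were primary cultures, prepared at embryonic day 18 from Sprague-Dawley rats. Lentivirus was added on day 5 or 6 in vitro, and RNA was taken from the whole culture at day 14. The 3 conditions were EGFP (the control virus), CCNY-WT (overexpression of wild-type cyclin Y, carried as CCNY-WT-EGFP) and CCNY-shRNA (knockdown of cyclin Y, carried as CCNY-shRNA-EGFP), so every culture, controls included, received a virus with EGFP. The vector was FUGW, whose ubiquitin promoter is active in most cell types, so EGFP and CCNY-WT-EGFP could be expressed in glia as well. The promoter of the shRNA is not given in the paper. The paper describes its cultures as enriched for neurons, with glia repressed. Each condition was sequenced as 2 libraries, and the labels do not say whether these came from separate cultures, so p-values measure only the spread between these libraries. The comparisons ask which transcripts differ when cyclin Y, a cyclin found at postsynaptic sites of these non-dividing cells, is raised or lowered.

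Rab proteins are small GTPases that give membranes their identity. In the GTP-bound form each sits on particular membranes and recruits effectors such as motor adaptors, tethers and docking factors; exchange factors (GEFs) load the GTP, GTPase-activating proteins (GAPs) end the signal, and GDP dissociation inhibitors (GDIs) return the prenylated protein through the cytosol. In hippocampal neurons the Rab11 and Rab4 proteins of recycling endosomes take part in returning AMPA receptors to dendritic spines, Rab5 controls entry into early endosomes, and the Rab3 and Rab27 proteins act in the release of synaptic vesicles and secretory granules.

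Expression was given as FPKM, the fragments of a gene scaled by the length of its transcript and by the mapped fragments of the library, so that levels can be compared between genes. The table holds no read counts. Depth relative to EGFP replicate 1, estimated from the steps between the lowest values, ranged from 0.818 to 1.32, and between 9955 and 10002 genes per library reached an FPKM of 1. For genes with a mean FPKM of at least 10, replicates differed on the log2 scale with a robust SD of 0.121 for EGFP, 0.115 for CCNY-WT and 0.152 for CCNY-shRNA. The target checked the labels: Ccny had FPKM values of 43.1 and 42.3 with EGFP, 108 and 109 with CCNY-WT and 5.98 and 6.19 with CCNY-shRNA. On log2 of FPKM floored to 1, Ccny rose by 1.35 in CCNY-WT (limma adjusted p = 4.61e-04) and fell by 2.81 in CCNY-shRNA (limma adjusted p = 1.57e-06), and transcripts of the insert and of the rat's own gene were not told apart. The adjusted p of the rise in CCNY-WT lay between 0.0518 and 0.155 without EGFP replicate 2 or either CCNY-WT library. Neuronal markers were plentiful: all 14 lay above an FPKM of 1 and their sum was between 7082 and 7325 in the 6 libraries. Of the 9 astrocyte markers, 8 were in the table and all 8 exceeded 1, so astrocyte RNA was present as well. Aif1 and Cx3cr1 of the microglial list and Cldn5 and Cdh5 of the vascular and meningeal list were listed at 0. On the same lists Cd68 reached 1.13 in CCNY-WT replicate 1, while Lum ranged from 46.0 to 59.7 and Dcn from 13.2 to 17.0. In such mixed RNA, fewer cells of a type and less RNA per cell cannot be told apart.

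Of the 54 Rab genes, 48 reached an FPKM of 1 in at least 2 libraries and were tested. Rab10, Rab17, Rab19 and Rab25 were listed at 0 in every library, a state shared by 3583 genes of the table (21.0%). Rab32 and Rab38, whose products act in the making of lysosome-related organelles such as melanosomes, stayed between 0.170 and 0.637. Rab17 and Rab25 are known from epithelia, but Rab10, which carries Golgi-derived and recycling cargo to the plasma membrane, is a widely used gene, and for it the table shows only that it is listed at 0. In EGFP, 11 members had a mean FPKM above 100, 29 lay between 10 and 100, 7 between 1 and 10 and 7 under 1. The median level of the tested Rab genes in EGFP was 34.5, against 17.0 over all 10188 genes tested.

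A few members made up most of the Rab transcript pool. Rab3a, the main Rab of synaptic vesicles, stood first in all 6 libraries, with FPKM values of 584 and 541 with EGFP, 567 and 585 with CCNY-WT and 593 and 602 with CCNY-shRNA. Rab6b, the neuronal form of the Golgi Rab6, followed with 423 and 415 with EGFP, 431 and 429.5 with CCNY-WT and 449 and 456 with CCNY-shRNA. Its more general paralog Rab6a had 252 and 234 with EGFP, 262 and 249 with CCNY-WT and 270.1 and 263 with CCNY-shRNA. The proportion of these Golgi forms varied little, since Rab6b was 1.64 to 1.77 times Rab6a in every library. Rab1a, which moves cargo from the endoplasmic reticulum (ER) to the Golgi, had 229 and 228 with EGFP, 229 and 229.8 with CCNY-WT and 238 and 257 with CCNY-shRNA. Rab2a, of the same route, had 222 and 199.9 with EGFP, 219 and 245 with CCNY-WT and 229.9 and 239 with CCNY-shRNA. In EGFP, Rab3a alone was 15.1% of the summed Rab FPKM, the 5 highest members 44.6% and the 10 highest 65.6%.

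**Figure D1:**
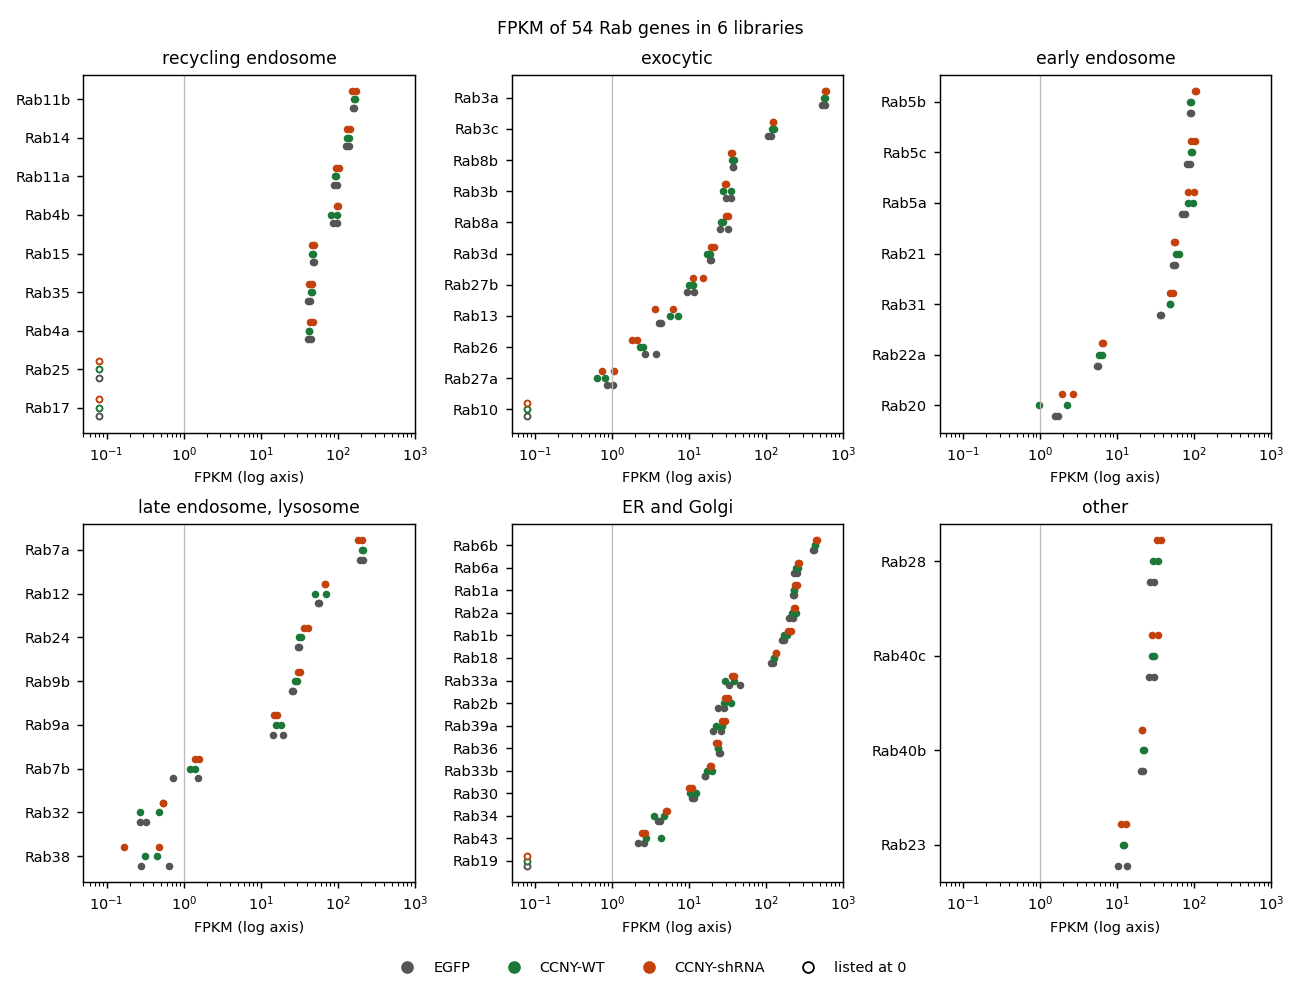
FPKM (log axis) of all 54 Rab genes in the 6 libraries, 1 panel for each compartment list; each point is 1 library, coloured by condition, open points at the left stand for genes listed at 0, and the grey line marks an FPKM of 1. Levels spread over several orders of magnitude between members, while the 3 conditions lie close together within most members, from Rab3a at 541 to 602 down to the 4 genes listed at 0.

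Each member was put in 1 compartment list by the main site of its product, although many act at several. Measured as summed FPKM in EGFP, the ER and Golgi list (15 members) held 41.2% of the Rab pool, the exocytic list (11 members) 21.7%, the recycling list (9 members) 16.4%, the early endosome list (7 members) 9.29% and the late endosome and lysosome list (8 members) 9.02%. The other 4 members, Rab23, Rab28, Rab40b and Rab40c, held 2.39%. The summed FPKM of all 54 genes was 3823 and 3634 with EGFP, 3841 and 3953 with CCNY-WT and 4010 and 4100 with CCNY-shRNA. In summed FPKM both CCNY-WT and both CCNY-shRNA libraries lay above both EGFP libraries. As a percent of the FPKM of all genes without Bc1, a gene very high in CCNY-WT replicate 1, the Rab sum was 0.703 and 0.668 with EGFP, 0.701 and 0.713 with CCNY-WT and 0.738 and 0.724 with CCNY-shRNA, so on this scale CCNY-WT overlapped EGFP and CCNY-shRNA did not. The mean sum was 3729 ± 134 for EGFP, 3897 ± 79.4 for CCNY-WT and 4055 ± 63.9 for CCNY-shRNA (SD, n = 2 each), and highly expressed members weigh most in it.

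The recycling endosome members did not pass the test in any comparison. Rab11a, the central Rab of the slow recycling route to spines, had FPKM values of 96.9 and 88.8 with EGFP, 94.9 and 93.1 with CCNY-WT and 96.1 and 105 with CCNY-shRNA. Rab11b, its more abundant paralog here, had 162 and 159 with EGFP, 161 and 166 with CCNY-WT and 155 and 173 with CCNY-shRNA. For both genes the CCNY-WT and CCNY-shRNA libraries overlapped those of EGFP, and Rab11b stayed 1.61 to 1.79 times Rab11a. Both CCNY-shRNA libraries of Rab11a lay above both CCNY-WT libraries, by a log2 difference of 0.09 (limma adjusted p = 0.634), while those of Rab11b overlapped. Fitted by limma, the log2 change of Rab11a was 0.02 in CCNY-WT (95% interval -0.14 to 0.17) and 0.11 in CCNY-shRNA (-0.04 to 0.27, adjusted p = 0.406). For Rab11b it was 0.03 in CCNY-WT (-0.12 to 0.18) and 0.03 in CCNY-shRNA (-0.12 to 0.18, limma adjusted p = 0.857). These intervals are what 2 libraries a group allow, and they do not show that the levels were equal.

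Rab4a and Rab4b serve the fast route from early endosomes back to the surface. Rab4a had FPKM values of 44.4 and 40.8 with EGFP, 42.8 and 42.6 with CCNY-WT and 44.2 and 47.4 with CCNY-shRNA. Rab4b had 87.6 and 96.3 with EGFP, 80.5 and 98.4 with CCNY-WT and 97.4 and 100.3 with CCNY-shRNA. Rab4b was the 1 recycling member whose CCNY-shRNA libraries both lay above both EGFP libraries, by a log2 change of 0.11 (-0.12 to 0.33, limma adjusted p = 0.599). The Rab4a libraries of CCNY-shRNA and EGFP overlapped, with a change of 0.11 (-0.06 to 0.27, limma adjusted p = 0.459). Rab14, which links endosomes with the trans-Golgi network, had 139.6 and 127 with EGFP, 139.8 and 133 with CCNY-WT and 146 and 132 with CCNY-shRNA. Rab15, which acts at early and recycling endosomes, had 47.3 and 49.3 with EGFP, 45.8 and 47.7 with CCNY-WT and 45.8 and 49.8 with CCNY-shRNA. Rab35, a Rab of fast endocytic recycling, had 41.5 and 43.4 with EGFP, 45.5 and 46.3 with CCNY-WT and 42.6 and 46.4 with CCNY-shRNA. In these 3 genes the CCNY-shRNA and EGFP libraries overlapped, with log2 changes of 0.06 for Rab14, -0.02 for Rab15 and 0.07 for Rab35. Both CCNY-WT libraries of Rab35 lay above both EGFP libraries, by a log2 change of 0.11 (limma adjusted p = 0.801). Over the 7 tested recycling members the median log2 change was 0.02 in CCNY-WT and 0.07 in CCNY-shRNA, and the latter ranged from -0.02 to 0.11.

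Among the exocytic members the Rab3 genes were the most abundant, and none of the 10 tested members passed the adjusted threshold. The log2 change of Rab3a was 0.04 in CCNY-WT (95% interval -0.11 to 0.18) and 0.09 in CCNY-shRNA (-0.06 to 0.23, limma adjusted p = 0.490). Rab3c, a close relative of Rab3a on synaptic vesicles, had FPKM values of 115 and 107 with EGFP, 126 and 121 with CCNY-WT and 123 and 122 with CCNY-shRNA. All 4 libraries of the manipulated cultures lay above both EGFP libraries for Rab3c, with log2 changes of 0.15 in CCNY-WT (limma adjusted p = 0.725) and 0.14 in CCNY-shRNA (limma adjusted p = 0.246). Rab3b had 34.7 and 30.2 with EGFP, 27.5 and 35.0 with CCNY-WT and 29.5 and 30.1 with CCNY-shRNA. Its CCNY-shRNA libraries lay just under those of EGFP, a log2 change of -0.12 (limma adjusted p = 0.645). Rab3d had 19.3 and 18.6 with EGFP, 17.0 and 19.04 with CCNY-WT and 19.2 and 21.0 with CCNY-shRNA. The order Rab3a, Rab3c, Rab3b, Rab3d held in every library, with Rab3a 4.52 to 5.06 times Rab3c.

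Rab8a and Rab8b, which carry Golgi-derived cargo to the plasma membrane, were of middling level. Rab8a had FPKM values of 32.0 and 25.3 with EGFP, 25.9 and 27.6 with CCNY-WT and 30.5 and 32.3 with CCNY-shRNA, and Rab8b had 37.8 and 37.7 with EGFP, 38.5 and 36.2 with CCNY-WT and 35.0 and 35.9 with CCNY-shRNA. Rab27b, the secretory granule Rab of neurons, had 9.37 and 11.7 with EGFP, 11.3 and 10.1 with CCNY-WT and 11.2 and 15.2 with CCNY-shRNA. It was 10.5 to 20.1 times its paralog Rab27a, which had 0.872 and 1.04 with EGFP, 0.809 and 0.647 with CCNY-WT and 1.07 and 0.756 with CCNY-shRNA. Rab13, known from junctional and surface delivery in epithelia, had 4.14 and 4.33 with EGFP, 5.61 and 7.30 with CCNY-WT and 3.62 and 6.14 with CCNY-shRNA. Its log2 change in CCNY-WT, 0.60, was the largest among the tested Rab genes there, at a low level and without passing the test (limma adjusted p = 0.729).

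Rab26, a Rab of secretory granules and synaptic vesicles with a link to autophagy, was the member with the lowest ratio to the control. It had FPKM values of 2.72 and 3.74 with EGFP, 2.503 and 2.30 with CCNY-WT and 2.14 and 1.85 with CCNY-shRNA. Both manipulated conditions lay under both EGFP libraries, but the EGFP libraries were themselves far apart. The log2 change was -0.41 in CCNY-WT (95% interval -0.91 to 0.08, limma adjusted p = 0.763) and -0.68 in CCNY-shRNA (-1.17 to -0.19, limma adjusted p = 0.153), and neither passed the threshold. Leaving out EGFP replicate 2, the higher control, brought these to -0.18 and -0.45. The median over the 10 tested exocytic members was -0.02 for CCNY-WT and 0.08 for CCNY-shRNA on the log2 scale.

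**Figure D2:**
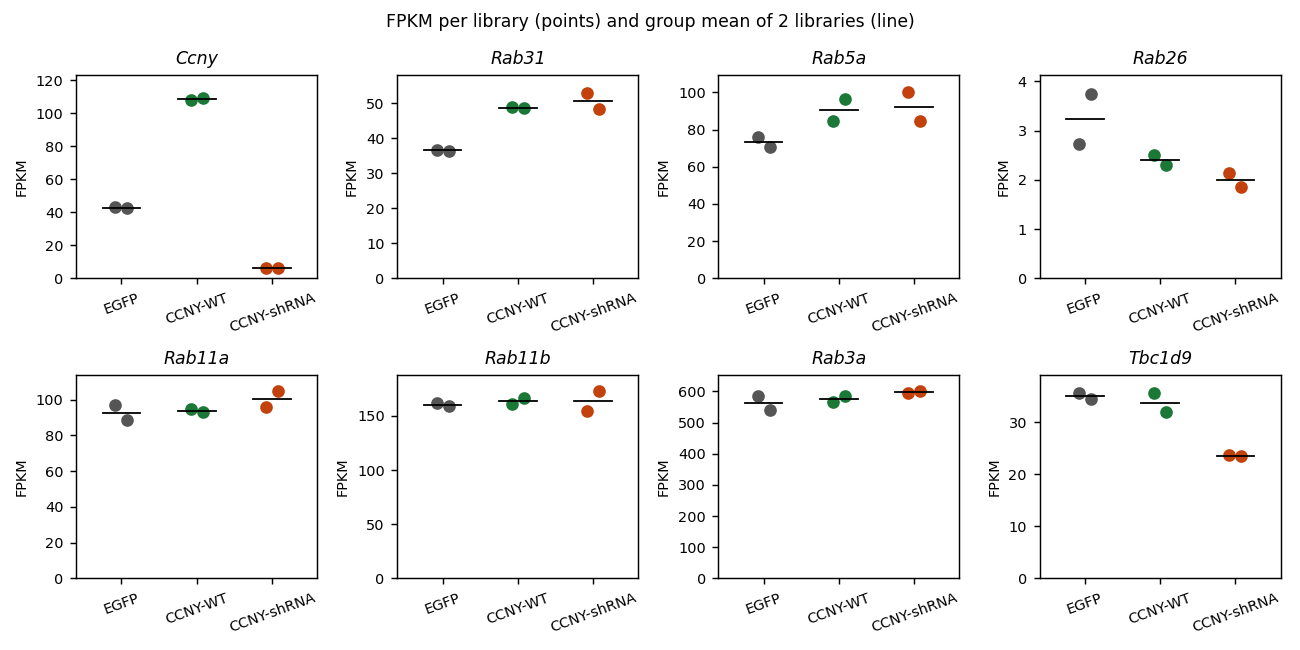
FPKM in each library (points) and the mean of the 2 libraries of a condition (lines) for Ccny, 6 Rab genes and the GAP gene Tbc1d9, each axis starting at 0. Rab31 and Rab5a lie higher in both manipulated conditions than in EGFP and Rab26 lower. Rab11a and Rab11b overlap EGFP in both conditions, and both CCNY-shRNA libraries are lowest for Tbc1d9.

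The early endosome list held the 1 Rab gene that passed the adjusted threshold. Rab31, also called Rab22b, acts between the trans-Golgi network and endosomes, and had FPKM values of 36.7 and 36.3 with EGFP, 48.8 and 48.5 with CCNY-WT and 53.0 and 48.4 with CCNY-shRNA. All 4 libraries of the manipulated cultures lay above both EGFP libraries, and CCNY-WT and CCNY-shRNA overlapped. In CCNY-shRNA Rab31 rose by 0.47 on the log2 scale (SE 0.066, 95% interval 0.32 to 0.62, limma adjusted p = 0.0363), a fold of 1.39. In CCNY-WT its log2 change was 0.41 (0.26 to 0.57), with an unadjusted p of 2.65e-04 and a limma adjusted p of 0.245. The direct difference between CCNY-shRNA and CCNY-WT was 0.06 (-0.10 to 0.21, limma adjusted p = 0.791). Leaving out any 1 of the 6 libraries brought the adjusted p of Rab31 in CCNY-shRNA above 0.05, between 0.0897 and 0.33, while the log2 change stayed between 0.40 and 0.54. Astrocyte markers, summed, were 537 and 577 with EGFP, 569.8 and 565 with CCNY-WT and 469.8 and 542 with CCNY-shRNA. The single markers did not move together. Both CCNY-WT libraries lay above both EGFP libraries for Gfap, Aqp4 and Slc1a3 and below them for Sox9. Both CCNY-shRNA libraries lay below both EGFP libraries for Slc1a3, Slc1a2 and Sox9. In each condition the other astrocyte markers overlapped EGFP. The part of the cell type makeup in the Rab31 values was not tested.

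Rab5a, Rab5b and Rab5c, which drive fusion and sorting at early endosomes, lay at similar levels. Rab5a had FPKM values of 75.9 and 70.6 with EGFP, 84.3 and 96.6 with CCNY-WT and 99.99 and 84.4 with CCNY-shRNA. Its pattern resembled that of Rab31, with both conditions above EGFP and log2 changes of 0.30 in CCNY-WT (limma adjusted p = 0.725) and 0.33 in CCNY-shRNA (limma adjusted p = 0.144), neither past the threshold. Rab5b had 92.2 and 88.9 with EGFP, 90.7 and 87.7 with CCNY-WT and 107 and 102 with CCNY-shRNA. With the knockdown it lay above the other libraries, by log2 values of 0.21 over EGFP (limma adjusted p = 0.117) and 0.23 over CCNY-WT (limma adjusted p = 0.192). Rab5c had 81.2 and 87.7 with EGFP, 93.0 and 90.7 with CCNY-WT and 91.9 and 101 with CCNY-shRNA, a log2 change of 0.19 in CCNY-shRNA (limma adjusted p = 0.187). Rab20, a low member, had 1.69 and 1.55 with EGFP, 0.983 and 2.23 with CCNY-WT and 1.91 and 2.71 with CCNY-shRNA. Its change of 0.49 in CCNY-shRNA was the highest positive Rab value in that comparison but had a limma adjusted p of 0.520, and it was 0.24 without CCNY-shRNA replicate 2. Rab21, which traffics integrins, had a log2 change of 0.16 in CCNY-WT (limma adjusted p = 0.729).

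The early endosome list as a whole summed to 349.9 and 343 with EGFP, 382 and 396 with CCNY-WT and 416 and 402 with CCNY-shRNA, with no overlap between the conditions. At an unadjusted limma p under 0.05, 3 of its 7 members were higher in CCNY-WT (Rab31, Rab5a and Rab21) and 4 of 7 in CCNY-shRNA (Rab31, Rab5a, Rab5b and Rab5c), where 3.83% and 9.2% of all genes tested were. In CCNY-shRNA, 6 of the 7 had both libraries above both EGFP libraries, where 23.9% of all genes did, and in CCNY-WT 5 of 7, where 20.3% did. On the log2 scale the median change of the 7 was 0.15 with overexpression and 0.22 with knockdown. This list holds Rab31 and, like the other compartment lists, was chosen with earlier results of these data known. Its counts are therefore a description and not independent support.

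Promoters are shown for Rab31 and Rab5a, the early endosome genes that were higher in both conditions at an unadjusted p under 0.05, and for Rab10 and Rab25, which were listed at 0, to set a widely used against an epithelial gene. They are the 250 bases before the annotated start, from RefSeq on GRCr8, at chr9:112828093-112828342 (minus strand) for Rab31, chr9:6720877-6721126 (plus) for Rab5a, chr6:32039555-32039804 (minus) for Rab10 and chr2:176304222-176304471 (minus) for Rab25. Capitals mark the GC box GGGCGG on either strand, the E-box CACGTG and the cAMP response element TGACGTCA.
Rab31: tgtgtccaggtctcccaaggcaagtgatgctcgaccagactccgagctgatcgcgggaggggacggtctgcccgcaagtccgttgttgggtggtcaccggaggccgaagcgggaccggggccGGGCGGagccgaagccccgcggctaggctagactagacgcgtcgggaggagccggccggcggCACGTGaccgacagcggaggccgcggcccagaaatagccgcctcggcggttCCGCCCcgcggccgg
Rab5a: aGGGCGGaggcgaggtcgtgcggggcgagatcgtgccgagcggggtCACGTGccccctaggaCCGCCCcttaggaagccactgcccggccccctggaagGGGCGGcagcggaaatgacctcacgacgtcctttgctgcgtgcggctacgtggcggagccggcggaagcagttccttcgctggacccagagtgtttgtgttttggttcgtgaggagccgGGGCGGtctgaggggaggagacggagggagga
Rab10: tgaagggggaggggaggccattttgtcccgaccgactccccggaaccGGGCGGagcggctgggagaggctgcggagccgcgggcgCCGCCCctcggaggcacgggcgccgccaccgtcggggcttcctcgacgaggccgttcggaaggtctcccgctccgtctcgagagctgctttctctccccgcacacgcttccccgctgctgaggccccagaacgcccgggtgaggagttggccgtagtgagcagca
Rab25: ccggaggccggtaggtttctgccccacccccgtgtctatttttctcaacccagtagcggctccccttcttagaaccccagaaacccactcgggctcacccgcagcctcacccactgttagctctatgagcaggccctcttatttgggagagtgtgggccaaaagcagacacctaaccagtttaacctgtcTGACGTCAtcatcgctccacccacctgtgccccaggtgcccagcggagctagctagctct
The promoters of Rab31, Rab5a and Rab10 are rich in CG, with ratios of observed to expected CG of 1.05, 0.938 and 0.927, while that of Rab25 has a ratio of 0.45 and no GC box. Among the 44 Rab genes with a promoter in the RefSeq set, the median ratio was 0.690, against 0.406 over all 27457 promoters. The GC box stood in 34 of the 44 (77.3%, against 32.4% of all promoters), the CCAAT box CCAAT in 34.1% (against 34.3%), and the TATA box TATAAA in 0 of 44 (against 13.1%). The E-box stood in 3 Rab promoters, those of Rab31, Rab5a and Rab21 (6.82% against 5.79%), and the cAMP response element in that of Rab25 alone (2.27% against 1.7%). These letters are a description of the windows and do not show that a factor binds there.

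None of the late endosome, ER and Golgi members passed the adjusted threshold, yet several lay higher in CCNY-shRNA. Rab1b, an ER to Golgi Rab, had FPKM values of 172 and 163 with EGFP, 172 and 189 with CCNY-WT and 196 and 209 with CCNY-shRNA, a log2 change of 0.28 in CCNY-shRNA (limma adjusted p = 0.0979). Rab24, which acts in autophagy, had 30.5 and 31.2 with EGFP, 31.0 and 33.8 with CCNY-WT and 41.2 and 36.1 with CCNY-shRNA, a change of 0.32 (limma adjusted p = 0.117). Rab18, found on the ER and lipid droplets, had 123 and 115 with EGFP, 129 and 128 with CCNY-WT and 136 and 137 with CCNY-shRNA, a change of 0.20 (limma adjusted p = 0.120). In these 3 genes both CCNY-shRNA libraries lay above all other libraries. Rab9b, of the route from late endosomes to the Golgi, had a change of 0.27 (limma adjusted p = 0.124), and Rab28, a Rab of cilia, of 0.31 (limma adjusted p = 0.183). Rab7a, which defines late endosomes, ranged from 186 to 215, and both manipulated conditions overlapped EGFP. Both its CCNY-shRNA libraries lay below both CCNY-WT libraries, by a log2 difference of -0.11 (limma adjusted p = 0.599). The Golgi member Rab36 had 25.0 and 25.0 with EGFP, 23.8 and 24.0 with CCNY-WT and 22.5 and 23.9 with CCNY-shRNA, with log2 changes of -0.06 in CCNY-WT and -0.11 in CCNY-shRNA (limma adjusted p = 0.901 and 0.467). Rab43, also of the Golgi, had 2.18 and 2.59 with EGFP, 4.29 and 2.81 with CCNY-WT and 2.67 and 2.45 with CCNY-shRNA, a change of 0.55 in CCNY-WT (limma adjusted p = 0.729) that was 0.24 without CCNY-WT replicate 1 and 0.85 without CCNY-WT replicate 2. In CCNY-shRNA, 10 of the 14 tested ER and Golgi members and 3 of the 6 tested late endosome and lysosome members had both libraries above both EGFP libraries, where 23.9% of all genes tested did, and their median log2 changes were 0.15 and 0.27.

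**Figure D3:**
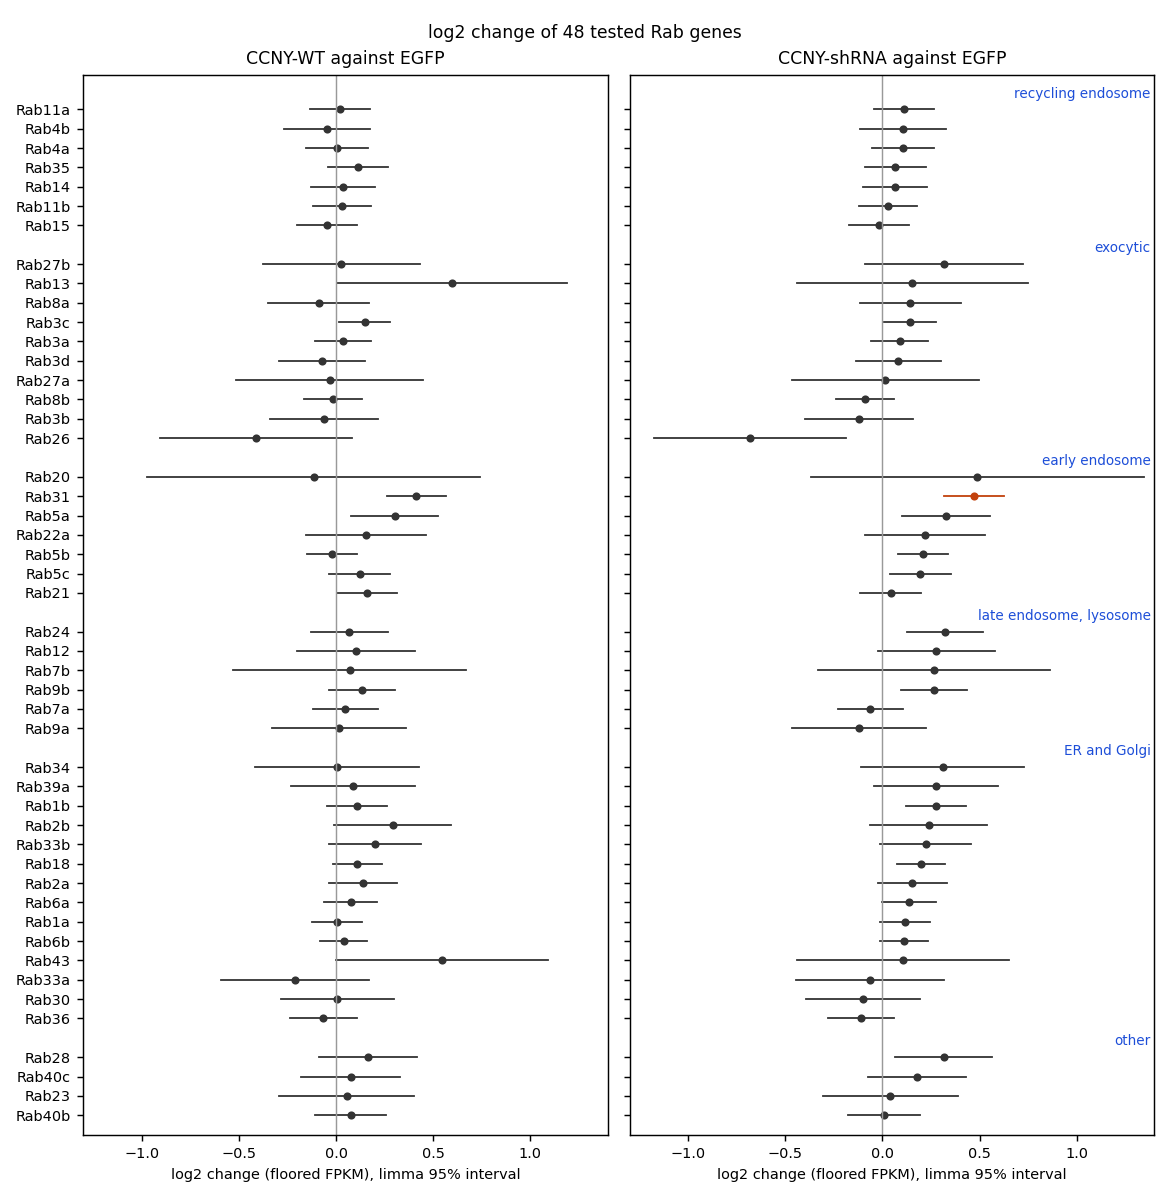
log2 change of floored FPKM against EGFP for the 48 tested Rab genes (points) with limma 95% intervals (lines), in CCNY-WT (left) and CCNY-shRNA (right), grouped by compartment list and ordered by the change in CCNY-shRNA. Rab31 in CCNY-shRNA, in orange, is the value past the adjusted threshold; intervals are widest for low members such as Rab20, Rab13 and Rab26.

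Counted over the 48 tested members, the adjusted limma threshold was passed by 1 Rab gene in CCNY-shRNA, upward (0.167% of all 10188 genes tested rose there), and by 0 downward (0.579% fell). In CCNY-WT 0 Rab genes rose and 0 fell, where 0.00982% and 0.0% of all genes did. At an unadjusted p under 0.05, CCNY-shRNA had 10 higher and 1 lower Rab gene (20.8% and 2.08% of the 48, where 9.2% and 9.36% of all genes tested were), and 5 were higher and 0 lower in CCNY-WT (10.4% of the 48, where 3.83% and 3.0% of all were). The 10 were Rab31, Rab1b, Rab24, Rab5b, Rab18, Rab9b, Rab5a, Rab28, Rab5c and Rab3c, and the lower one Rab26. The 5 were Rab31, Rab5a, Rab3c, Rab21 and Rab13.

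Most of the small differences leaned the same way. In CCNY-shRNA 39 of 48 Rab genes had a mean above that of EGFP (81.2%, against 50.0% of all genes tested), and in CCNY-WT 36 of 48 (75.0%, against 51.3%), while 9 and 12 had a mean below it (49.8% and 48.6% of all). Both CCNY-shRNA libraries lay above both EGFP libraries for 23 members (47.9%, against 23.9% of all) and below for 4 (8.33%, against 24.5%). For CCNY-WT these were 15 members (31.2%, against 20.3%) and 3 members (6.25%, against 19.2%). Over the tested Rab genes, the log2 change had a median of 0.13 for CCNY-shRNA and 0.05 for CCNY-WT, where the median of all genes tested was 0.00 in both. Among genes with a mean FPKM of at least 10, the median in CCNY-shRNA was 0.11 for 40 Rab genes and 0.01 for all 6572 genes, and it was 0.04 for the 1127 genes with a mean FPKM of at least 100. Both comparisons share the same 2 EGFP libraries, and EGFP replicate 2 had the lowest summed Rab FPKM of all libraries.

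**Figure D4:**
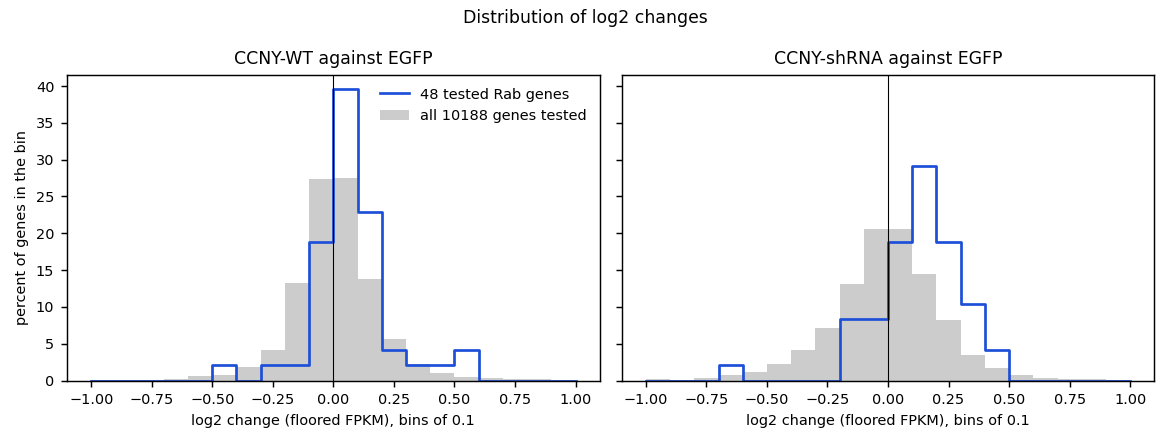
Percent of genes per bin of 0.1 in log2 change against EGFP, for all 10188 genes tested (grey bars) and the 48 tested Rab genes (blue line), in CCNY-WT (left) and CCNY-shRNA (right). The Rab line is displaced to the right of the grey bars, with medians of 0.05 and 0.13 against 0.00, and Rab26 stands alone at the left.

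By size alone, 4 Rab genes were at least 0.3 higher on the log2 scale in CCNY-WT (Rab13, Rab43, Rab31 and Rab5a; 4.59% of all genes tested) and 1 was at least 0.3 lower (Rab26; 3.76%). In CCNY-shRNA, with a threshold of 0.33, 2 were higher (Rab31 and Rab20; 5.52% of all) and 1 lower (Rab26; 7.59%). Rab5a, at 0.33 after rounding, lay just under that limit, followed by Rab24 at 0.32. These counts changed with the libraries used, and each library left out raised that of CCNY-shRNA. The 3 of CCNY-shRNA became 8 without EGFP replicate 1 and 6 without EGFP replicate 2. They became 6 without CCNY-shRNA replicate 1 and 7 without CCNY-shRNA replicate 2. The 5 of CCNY-WT became 9 without CCNY-WT replicate 1. No recycling endosome member passed the size threshold in either condition.

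Between CCNY-shRNA and CCNY-WT directly, 0 Rab genes passed the adjusted limma threshold in either direction, where 0.0196% of all genes tested were higher and 0.196% lower in CCNY-shRNA. At an unadjusted p under 0.05, 3 were higher (6.25% of the 48, where 5.05% of all genes tested were) and 0 lower (7.12% of all). These 3 were Rab5b, at 0.23, Rab24, at 0.25 (limma adjusted p = 0.317), and Rab1b, at 0.17 (limma adjusted p = 0.386). The mean was higher in CCNY-shRNA for 32 members and lower for 16 (50.4% and 49.5% of all), the libraries did not overlap for 14 and 6 (20.3% and 21.9%), and the median log2 difference over the tested Rab genes was 0.06. A gene such as Rab31 that lay higher in both conditions gives little in this comparison. Rab5b, Rab24 and Rab1b lay higher with the knockdown than with the overexpression, but none of them passed the adjusted threshold. At the unadjusted limit the share of Rab genes that were higher was near that of all genes tested. In the lower direction there were 0, against 7.12% of all.

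The genes that run the Rab cycle were taken from a separate list. Of 143 listed GEFs, GAPs, GDIs, prenylation factors and effectors, 108 were in the table and 91 were tested. In CCNY-shRNA 0 rose and 1 fell past the adjusted limma threshold (0.167% and 0.579% of all genes tested), and in CCNY-WT 0 rose and 0 fell (0.00982% and 0.0%). The 1 was Tbc1d9, of the TBC domain family that holds most Rab GAPs, with FPKM values of 35.6 and 34.5 with EGFP, 35.7 and 32.0 with CCNY-WT and 23.7 and 23.6 with CCNY-shRNA. Both CCNY-shRNA libraries lay under all others, and Tbc1d9 fell by 0.57 on the log2 scale against EGFP (SE 0.0766, limma adjusted p = 0.0312). Against CCNY-WT its change was -0.51 (limma adjusted p = 0.0579), and CCNY-WT differed from EGFP by -0.05 (limma adjusted p = 0.922). Without any 1 library the adjusted p of the fall in CCNY-shRNA lay between 0.0897 and 0.316. Without adjustment (p under 0.05), 4 partner genes were higher and 4 lower with the knockdown (4.4% each of the 91, where 9.2% and 9.36% of all genes tested were), and 1 was higher and 1 lower with the overexpression (1.1% each, where 3.83% and 3.0% of all were). The 91 genes had a median log2 change of 0.00 in both conditions.

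Gdi2, which extracts Rab proteins from membranes, had FPKM values of 212 and 204 with EGFP, 208 and 224 with CCNY-WT and 215 and 226 with CCNY-shRNA. Both CCNY-shRNA libraries lay above both EGFP libraries, as in 23.9% of all genes tested, while those of CCNY-WT overlapped the others. The log2 change of Gdi2 in CCNY-shRNA was 0.085 (limma adjusted p = 0.488), which did not pass the threshold. Rph3a, which encodes the Rab3 effector rabphilin, had 72.3 and 72.2 with EGFP, 70.6 and 68.3 with CCNY-WT and 63.0 and 60.1 with CCNY-shRNA. Its CCNY-shRNA libraries lay under the others, but the gene did not pass the threshold. Gdi2 and Rph3a were named after their values were seen.

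Sums of cell type markers are set beside these results. The neuronal sum was 7170 and 7209 with EGFP, 7085 and 7082 with CCNY-WT and 7253 and 7325 with CCNY-shRNA. The sum of 7 interneuron markers was 2169 and 2289 with EGFP, 2189 and 2213 with CCNY-WT and 1880 and 2045 with CCNY-shRNA, the last below the others. Sst made up 1256 and 1311 of it with EGFP and 1043 and 1158 with CCNY-shRNA. Both CCNY-shRNA libraries lay below both EGFP libraries for Sst, Gad1, Gad2 and Slc32a1, while Dlx1, Lhx6 and Npy overlapped EGFP. The oligodendrocyte lineage sum, with Sox10 listed at 0, ranged from 47.5 to 57.7. The vascular and meningeal sum, mainly from Lum and Dcn, ranged from 63.3 to 75.1. The mitotic sum ranged from 4.17 to 5.50 and the microglial sum from 0.407 to 1.34. Their part in the Rab values was not tested.

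Some Rab levels carry a limit of annotation. Rab3a overlaps Mpv17l2, Rab6a overlaps Mrpl48 and Plekhb1, Rab5a overlaps Pp2d1 and Rab9a overlaps Trappc2 on GRCr8, and the strand setting of the counting was not stated. Close paralogs such as Rab3a and Rab3c, Rab6a and Rab6b or Rab1a and Rab1b can share reads, so how fragments were divided within these pairs is uncertain.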

How the data were processed

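RNA was sequenced from 6 libraries, 2 for each condition. The authors mapped reads to rn4 with TopHat 2 and calculated expression with Cufflinks, and the deposited values are FPKM per gene. The submitters' processing notes name TopHat2 2.0, Bowtie2 2.1.0, SAMtools 0.1.19, Cufflinks 2.2.1 and R 3.1.0. The annotation, the strand setting and any scaling between libraries were not given in the sources used here. Because cuffdiff needs alignments, limma 3.58.1 (R 4.3.3: lmFit, contrasts.fit, eBayes with trend) took its place. It was run on log2 of FPKM floored to 1, which understates changes of genes near an FPKM of 1, over all 6 libraries, for the 10188 genes that reached an FPKM of 1 in 2 libraries or more. The p-values were two-sided and adjusted by Benjamini-Hochberg over all genes tested, with a threshold of 0.05. The fit was tested on simulated data. Size counts used 0.3 (CCNY-WT) and 0.33 (CCNY-shRNA), as in the study's methods, without a test.

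Groups came from the labels. The depth of each library in reads is unknown, and no count intervals are given. The Rab genes, compartment lists and partner lists were chosen with earlier results of these data known. Named with values in every library were the tested recycling and exocytic members, members or partners past the threshold, the 3 largest rises and falls in the same direction in all 4 library pairings for each comparison with EGFP, the 5 highest members, Rab26 and Ccny; Rab5b, Rab5c, Rab1b, Rab24 and Rab18 were added after their values were seen. All 54 symbols are current RefSeq symbols. RefSeq on GRCr8 gave promoters and overlaps, which were not used for FPKM. Alternatives covered the offset, filter, scaling, spread estimate, replicate block, size threshold and each library left out. Python 3.11.15, pandas 2.3.3, numpy 2.4.6 and matplotlib 3.10.9 were used for tables and figures. The values of 1 partner gene are not reported here.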

Additional observations from a re-analysis of the deposited data

How the results depend on the processing

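With 2 libraries a group, the call of Rab31 in CCNY-shRNA was at the limit of the design. The count of Rab genes past the adjusted threshold there was 1, and 0 without a filter, without a trend, in only the 4 libraries compared and without any 1 library (0 to 0); Rab31 kept its direction and was called in 6 of 15 alternatives (adjusted p 0.0299 to 0.33). The count of partner genes there went from 1 to 0 under the same settings (0 to 0 without any 1 library), and Tbc1d9 was called in 6 of 15 (0.0238 to 0.316). Against CCNY-WT the partner count went from 0 to 1, Tbc1d9, with log2(FPKM + 1), log2(FPKM + 0.1) and a mean FPKM of at least 1. The adjusted counts of Rab and partner genes in CCNY-WT, and of Rab genes between CCNY-shRNA and CCNY-WT, were 0 under every alternative.

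Size counts moved most. The 5 Rab genes of CCNY-WT became 0 at a threshold of 1 and 4 to 9 without 1 library, and the 3 of CCNY-shRNA became 0 at a threshold of 1, 6 with log2(FPKM + 0.1) and 6 to 8 without 1 library. The median Rab change in CCNY-WT lay between 0.023 and 0.10 without 1 library, the upper value without CCNY-WT replicate 1, and in CCNY-shRNA between 0.09 and 0.16. Values near 0 changed sign. With quantile normalization Rab11b in CCNY-shRNA was -0.0061 and Rab3a in CCNY-WT -0.0015. Without 1 library the range was -0.052 to 0.11 for Rab11b, -0.0069 to 0.13 for Rab14 and -0.076 to 0.044 for Rab15 in CCNY-shRNA, -0.044 to 0.081 for Rab11a, -0.018 to 0.091 for Rab3a and -0.13 to 0.026 for Tbc1d9 in CCNY-WT, and -0.0094 to 0.12 for Rab31 between CCNY-shRNA and CCNY-WT. The causes were not tested. A library left out leaves 1 in its group, which is then assumed to vary like the other groups.

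Same-numbered libraries shared little of their deviation, which correlated at 0.0530, 0.0377 and 0.0538 across genes. These values cannot show whether same-numbered libraries came from the same culture. With the replicate number as a block, the count of Rab genes stayed at 1 in CCNY-shRNA, 0 in CCNY-WT and 0 between CCNY-shRNA and CCNY-WT, and that of partner genes at 1, 0 and 0.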
